A study of Mus musculus with 14 samples.

Results

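The 7 genes described here belong to the major histocompatibility complex (MHC) class II pathway: H2-Aa, H2-Ab1, H2-Eb1, Cd74, H2-DMa, H2-DMb1 and Ciita. They were chosen by gene name from a table of read counts for 22048 protein-coding genes, with the counts of these same libraries already known. Their values are therefore a description, and the calls given for them support nothing beyond it. All 7 passed the filter on low counts, which left 12343 genes.

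The libraries are RNA sequencing of CD4+ T cells from spleen and peripheral lymph nodes of C57BL/6 mice in which YFP reports interferon-gamma, the main Th1 cytokine. One group was sorted directly as naive cells (CD4+ CD44- CD62L+, n = 3). For the other groups, enriched CD4+ T cells, which were not sorted as naive, were cultured for 4 days towards the Th1 fate. The plates were coated with antibodies to CD3 and CD28 (1 µg/ml each), and the medium held 10 ng/ml of both IL-2 and IL-12 as well as 10 µg/ml of an antibody to IL-4. Every culture received a compound at 1 µM, which was SGC0946, an inhibitor of DOT1L, an enzyme that methylates histone H3, or SGC0649, used as the inactive control. Reporter-negative (YFPneg) and reporter-positive (YFPpos) cells were then sorted. With SGC0649 there were 2 YFPneg and 3 YFPpos libraries, and with SGC0946 there were 3 of each. SGC0649 replicates are named 61, 62 and 63 as in the labels, and SGC0946 replicates 91, 92 and 93. A culture without either compound was not analysed here.

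MHC class II molecules are pairs of an alpha and a beta chain that show peptides from engulfed proteins to CD4+ T cells. In the endoplasmic reticulum the pair is held by the invariant chain, the product of Cd74, which blocks the peptide groove and guides the complex to endosomes. Proteases cut the invariant chain down to a fragment named CLIP, and the H2-DM dimer then exchanges CLIP for peptide. The transactivator made by Ciita binds no DNA itself and joins regulatory factor X, CREB and NF-Y, which sit on the X and Y boxes of class II promoters. B cells, dendritic cells and macrophages express the pathway throughout, interferon-gamma induces Ciita in many other cells, and T cells of the mouse are generally described as making little class II of their own.

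Letters of the Y box can be seen in the promoters of 3 class II genes, and the X box letters marked here in H2-Eb1 and H2-Ob. The 3 genes, shown because Ciita is known to act through such boxes, are H2-Aa, H2-Eb1 and H2-Ob, a partner gene described later. The stretches run from 130 to 21 bases before the start annotated by RefSeq, 5′ to 3′ on the gene's own strand (GRCm38.p6). Capitals mark TGATTGG (the Y box core, bound by NF-Y), AACNNATG (part of the X box in these windows) and TGACGTCA (the cyclic AMP response element, bound by CREB).
H2-Aa, chr17:34287844-34287953, minus strand: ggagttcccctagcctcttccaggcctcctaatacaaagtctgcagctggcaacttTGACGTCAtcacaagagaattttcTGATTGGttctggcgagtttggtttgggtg
H2-Eb1, chr17:34305737-34305846, plus strand: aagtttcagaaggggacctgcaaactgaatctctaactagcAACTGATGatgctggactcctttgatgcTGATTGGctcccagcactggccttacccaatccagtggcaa
H2-Ob, chr17:34238775-34238884, plus strand: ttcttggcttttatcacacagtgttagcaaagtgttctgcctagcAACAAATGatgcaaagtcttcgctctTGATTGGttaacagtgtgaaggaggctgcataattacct

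The motifs were picked after these windows had been read, both strands were searched, and none overlapped another. Among 32851 RefSeq windows reaching from 250 bases before to 50 after a start, 7.82% held TGATTGG, 8.86% held AACNNATG and 1.79% held TGACGTCA. An AACNNATG followed on the same strand by TGATTGG within 30 bases was found in 16 windows (0.0487%), of which 5 belonged to class II genes: H2-Eb1, H2-DMb1, H2-DMb2, H2-Ob and H2-Eb2. The motifs were 20 bases apart in H2-Eb1, 21 in H2-DMb1 and 18 in H2-Ob. H2-Aa held TGATTGG with TGACGTCA, and the 2 windows of H2-DMa held none of the 3 motifs. Windows for 4 of the 7 members were in the table, and those of H2-Ab1, Cd74 and Ciita were not used here. A match describes letters only and shows no binding.

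**Figure D1:**
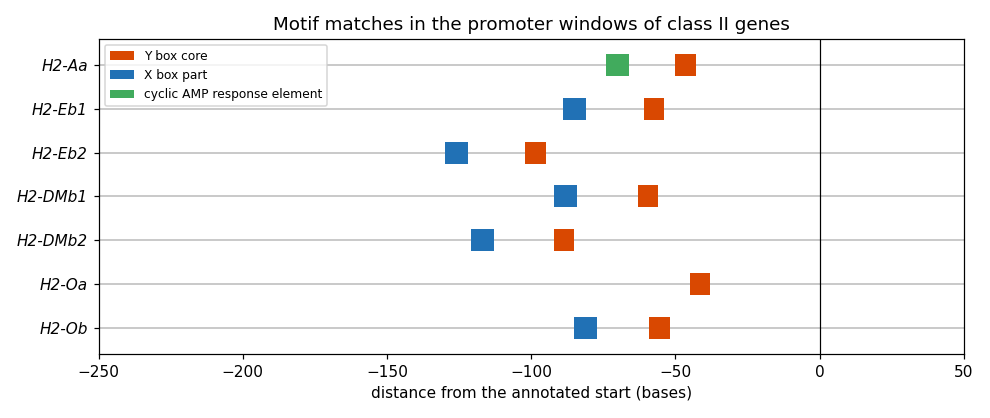
Matches of the 3 motifs in the promoter windows of 7 class II genes, plotted as distance in bases from the RefSeq start (vertical line). The X box part lies upstream of the Y box core in H2-Eb1, H2-Eb2, H2-DMb1, H2-DMb2 and H2-Ob, and the Y box core lies between 45 and 102 bases before the start in all 7 genes.

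Total counts ranged from 14.5 M to 31.6 M per library, with M for 1000000 counts. Ifng, the gene the reporter follows, was at 25.4 to 114 counts per 1000000 (CPM, scaled by edgeR's TMM factors) in YFPneg libraries, at 533 to 929 in YFPpos libraries and at no more than 0.187 in naive ones. The 10 T cell identity genes, among them Cd3e and Cd4, summed to 4193 to 6376 CPM. YFPneg SGC0946 replicate 93 had the smallest total and stands apart in several of the genes below. Reads that mapped to several places took 21.5% to 22.2% of reads in YFPneg and 24.0% to 25.7% in YFPpos libraries, with no overlap, and 21.7% to 22.2% in naive ones. Unmapped reads took 3.14% to 4.62% in YFPneg, 3.61% to 8.35% in YFPpos and 7.40% to 8.66% in naive libraries. The part of these shares in the results was not tested. In bulk RNA, more cells expressing a gene and more RNA of it per cell cannot be told apart. Differences are log2 fold changes from edgeR's quasi-likelihood test over all 14 libraries, and a gene is called when its Benjamini-Hochberg adjusted p, over all 12343 genes, is under 0.05.

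In naive cells 5 of the 7 genes had 20 reads or fewer in every library, and Cd74 and H2-DMa had more. H2-Aa had 12, 5 and 20 reads, H2-Ab1 11, 3 and 16 and H2-Eb1 13, 4 and 10. H2-DMb1 had 3, 1 and 1 reads and Ciita 0, 2 and 3. Cd74 had 55, 34 and 76 reads and H2-DMa 283, 201 and 267. Per kilobase of exon, the scale on which genes can be compared, the naive mean was highest for H2-DMa at 4.31 CPM per kb, followed by Cd74 at 1.93, and no other member passed 0.274. After culture Cd74 led in every group, with means of 19.5 to 50.5 CPM per kb. The transactivator was the lowest of the 7 throughout, with means of 0.0775 to 0.290 CPM per kb in cultured cells.

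**Figure D2:**
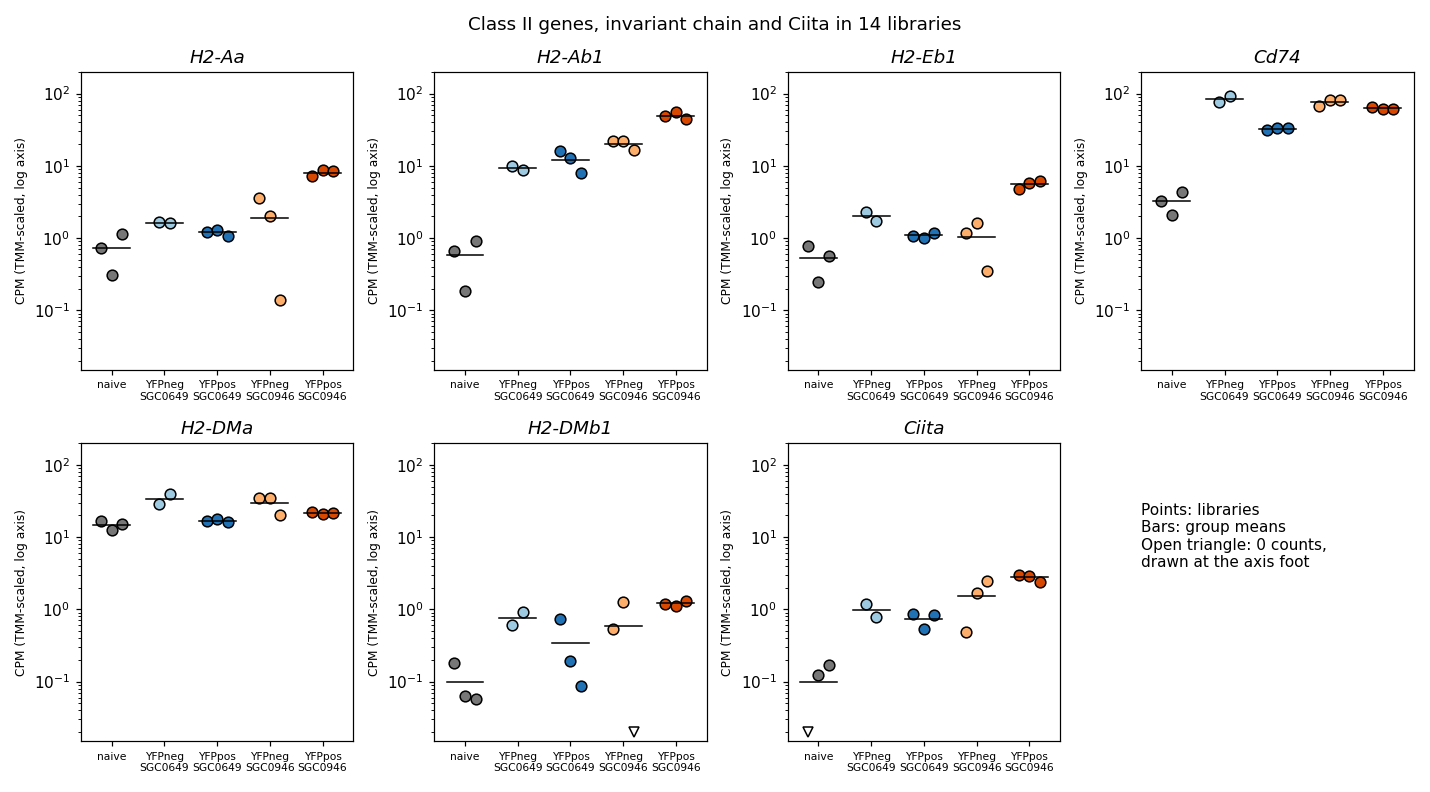
Level of each of the 7 genes in each library (points, TMM-scaled CPM on a log axis) with the group mean (bars), and open triangles for libraries with 0 counts. H2-Aa, H2-Ab1 and H2-Eb1 are highest in the 3 YFPpos SGC0946 libraries, whereas the highest Cd74 and H2-DMa levels are in YFPneg libraries.

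H2-Aa (ENSMUSG00000036594, chromosome 17, 34282744 to 34287823, minus strand, GRCm38) encodes the alpha chain of I-A, the class II molecule of C57BL/6 mice. It had 33 and 31 reads in YFPneg SGC0649 cells and 28, 27 and 25 in YFPpos SGC0649 cells. With SGC0946 it had 67, 32 and 2 reads in YFPneg cells and 161, 217 and 272 in YFPpos cells. The YFPpos SGC0946 libraries were thus above every other library, and the YFPneg SGC0946 libraries ran from below all naive values to above every library outside the YFPpos SGC0946 group. Mean levels were 1.20 CPM ± 0.106 (SD, n = 3) in YFPpos SGC0649 and 8.04 ± 0.779 (n = 3) in YFPpos SGC0946 cells, a log2 difference of 2.75 (SE 0.52). In YFPneg cells they were 1.63 ± 0.0591 (n = 2) and 1.91 ± 1.72 (n = 3), with a log2 difference of 0.26 and a 95% interval of -1.03 to 1.56. Without replicate 93 that difference was 0.78 (adjusted p = 0.16, edgeR).

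H2-Ab1 (ENSMUSG00000073421, chromosome 17, 34257689 to 34269419, plus strand), the beta chain of I-A, was the surface chain with the most reads in cultured cells. It had 193 and 171 reads in YFPneg SGC0649 and 367, 269 and 182 in YFPpos SGC0649 cells, and these groups overlapped. With SGC0946 it had 416, 349 and 234 reads in YFPneg cells and 1117, 1379 and 1437 in YFPpos cells. Both SGC0946 groups lay above their SGC0649 counterparts without overlap in CPM, and above each other in the order YFPneg, YFPpos. Mean levels were 9.30 CPM ± 0.720 (SD, n = 2) and 20.1 ± 3.29 (n = 3) in YFPneg cells, and 12.2 ± 4.06 and 49.5 ± 5.34 (n = 3 each) in YFPpos cells. The log2 difference between compounds was 1.12 (SE 0.25) in YFPneg and 2.02 (SE 0.21) in YFPpos cells. It was the one member called in both sorts.

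H2-Eb1 (ENSMUSG00000060586, chromosome 17, 34305867 to 34316674, plus strand) encodes the beta chain of I-E, whose alpha partner is defective in C57BL/6 mice. It had 45 and 34 reads in YFPneg SGC0649, 25, 21 and 27 in YFPpos SGC0649, 22, 26 and 5 in YFPneg SGC0946 and 106, 145 and 199 in YFPpos SGC0946 cells. In CPM the YFPpos SGC0946 libraries, at 4.71 to 6.11, lay above all others, and both YFPneg SGC0946 and YFPpos SGC0649 libraries lay below YFPneg SGC0649. The log2 difference between compounds was 2.34 (SE 0.39) in YFPpos cells and -0.92 (95% interval -1.89 to 0.05) in YFPneg cells, or -0.54 there without replicate 93.

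The I-A chains did not stand in the same proportion in naive and cultured cells. There were 0.917, 0.600 and 0.800 H2-Ab1 reads for each H2-Aa read in naive libraries, where both counts were 20 or less. Cultured libraries had 5.85 and 5.52 in YFPneg SGC0649, 13.1, 9.96 and 7.28 in YFPpos SGC0649, and 6.94, 6.35 and 5.28 in YFPpos SGC0946 cells. The 11 cultured libraries lay above the naive ones, and the YFPpos groups did not overlap each other. YFPneg SGC0946 libraries had 6.21, 10.9 and 117, the last from replicate 93 with its 2 H2-Aa reads against 234 of H2-Ab1. Per kilobase of exon the ratio was 0.887 to 1.36 in naive cells and 7.81 to 19.4 in cultured cells other than that library.

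**Figure D3:**
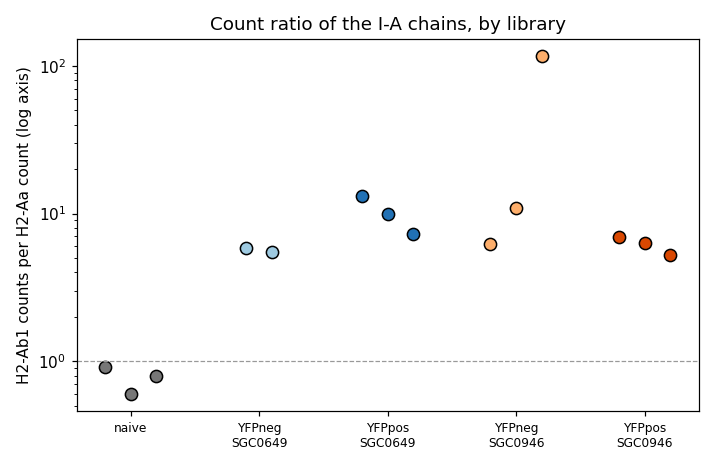
H2-Ab1 reads for each H2-Aa read in each library (log axis), with a dashed line at 1. The naive libraries sit at 0.600 to 0.917 and the cultured ones between 5.28 and 13.1, apart from YFPneg SGC0946 replicate 93 at 117.

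Cd74 (ENSMUSG00000024610, chromosome 18, 60803848 to 60812652, plus strand), the invariant chain, followed another order. It had 1499 and 1821 reads in YFPneg SGC0649, 720, 695 and 778 in YFPpos SGC0649, 1265, 1300 and 1173 in YFPneg SGC0946 and 1473, 1521 and 1992 in YFPpos SGC0946 cells. Mean levels rank from naive at 3.24 CPM ± 1.10 (SD, n = 3) through YFPpos SGC0649 at 32.7 ± 1.29 (n = 3), YFPpos SGC0946 at 62.4 ± 2.74 (n = 3) and YFPneg SGC0946 at 76.8 ± 8.02 (n = 3) to YFPneg SGC0649 at 84.9 ± 12.3 (n = 2). Neighbours in that order did not overlap except the YFPneg groups. The log2 difference between compounds was 0.93 (SE 0.12) in YFPpos cells and -0.14 (95% interval -0.42 to 0.13) in YFPneg cells.

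H2-DMa (ENSMUSG00000037649, chromosome 17, 34119541 to 34139101, plus strand) and H2-DMb1 (ENSMUSG00000079547, chromosome 17, 34153072 to 34160230, plus strand) encode the chains of the CLIP exchange factor. H2-DMa had 561 and 770 reads in YFPneg SGC0649, 389, 371 and 370 in YFPpos SGC0649, 650, 565 and 288 in YFPneg SGC0946 and 507, 523 and 709 in YFPpos SGC0946 cells. Its log2 difference between compounds was 0.36 (95% interval -0.01 to 0.73) in YFPpos cells, where the groups did not overlap but it was not called. With only those groups fitted it was 0.41 and called (adjusted p = 0.0037, edgeR). In YFPneg cells the difference from the fit to all 14 libraries was -0.18 (-0.58 to 0.23).

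H2-DMb1 had 12 and 18 reads in YFPneg SGC0649, 17, 4 and 2 in YFPpos SGC0649, 10, 20 and 0 in YFPneg SGC0946 and 27, 28 and 43 in YFPpos SGC0946 cells. The last group was above all other groups except YFPneg SGC0946, whose second library overlapped it. The log2 difference between compounds in YFPpos cells was 1.81 (95% interval 0.18 to 3.45) and was not called, but it was 3.09 and called without YFPpos SGC0649 replicate 61 (adjusted p = 0.026, edgeR). It was also called with only those groups fitted (1.86, adjusted p = 0.021, edgeR) and in limma-voom (2.24, adjusted p = 0.037). Of the 50-base stretches of H2-DMb1 transcripts, 22.7% also occur in other genes, mainly its neighbour H2-DMb2, so its counts are uncertain. H2-DMb2 itself had 22, 21 and 13 reads in YFPpos SGC0649 and 57, 52 and 76 in YFPpos SGC0946 cells.

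Ciita (ENSMUSG00000022504, chromosome 16, 10480059 to 10528418, plus strand), the transactivator, had 23 and 15 reads in YFPneg SGC0649, 20, 11 and 19 in YFPpos SGC0649, 9, 27 and 35 in YFPneg SGC0946 and 68, 73 and 77 in YFPpos SGC0946 cells. Mean levels in YFPpos cells were 0.739 CPM ± 0.186 with SGC0649 and 2.76 ± 0.351 with SGC0946 (SD, n = 3 each). Those groups did not overlap, and their log2 difference was 1.89 (SE 0.49). Its call was lost without YFPpos SGC0649 replicate 62 (log2 difference 1.70, adjusted p = 0.054, edgeR). In YFPneg cells the difference was 0.63 (95% interval -0.59 to 1.86), and replicate 93, lowest for H2-Aa, H2-Eb1 and H2-DMb1, was the highest of its group for Ciita, at 2.44 CPM.

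Counted together, 5 of the 7 genes were called higher and 0 lower with SGC0946 in YFPpos cells: H2-Aa, H2-Ab1, H2-Eb1, Cd74 and Ciita. Of all genes tested, 27.7% were called there, 12.1% higher and 15.7% lower. Of the called genes 43.5% were higher, or 55.1% when DESeq2's size factors replaced the TMM factors. The members' median log2 difference was 1.89, against -0.04 over all genes. In YFPneg cells 1 member, H2-Ab1, was called higher and 0 lower, where 8.63% of all genes were called, 4.99% higher and 3.64% lower, and the members' median was -0.14 against 0.01 over all genes. That call was lost without YFPneg SGC0649 replicate 62 (log2 difference 1.04, adjusted p = 0.10, edgeR), where all-gene calls fell from 1065 to 335.

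The interaction, the compound difference in YFPpos minus that in YFPneg cells, was called for 2 members where 1.15% of all genes were called (0.259% higher and 0.891% lower). Of those called genes 22.5% were higher, or 32.8% with DESeq2's size factors. It was 3.26 (SE 0.60) for H2-Eb1 and 1.07 (SE 0.18) for Cd74 on the log2 scale. H2-Eb1's call was lost without YFPneg SGC0649 replicate 61 (3.05, adjusted p = 0.065, edgeR). The others were not called, with 95% intervals of 0.80 to 4.17 for H2-Aa, 0.22 to 1.58 for H2-Ab1, -0.01 to 1.09 for H2-DMa, -0.30 to 4.61 for H2-DMb1 and -0.35 to 2.85 for Ciita. H2-Aa passed the threshold without YFPneg SGC0946 replicate 91 (3.32, adjusted p = 0.042) and without replicate 93 (1.97, adjusted p = 0.043, both edgeR).

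**Figure D4:**
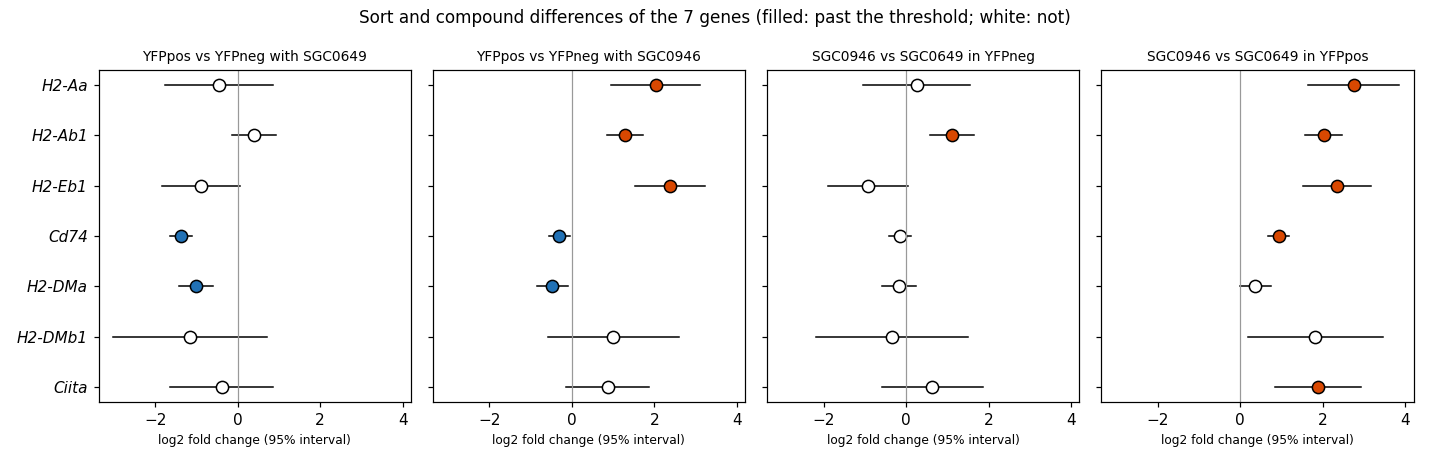
Log2 fold change with its 95% interval (bars) for the 7 genes in the sort and compound comparisons, filled where called and white where not. H2-Aa, H2-Ab1 and H2-Eb1 are called higher in YFPpos SGC0946 cells in both comparisons that include them, and between compounds in YFPneg cells H2-Ab1 alone is called, at 1.12.

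The reporter sort was compared within each compound. With SGC0649, 0 members were called higher and 2 lower in YFPpos than in YFPneg cells, where 45.2% of all genes were called, 23.9% higher and 21.3% lower. Cd74 fell by 1.38 (SE 0.13) and H2-DMa by 1.01 (SE 0.19) on the log2 scale. The log2 difference was 0.39 for H2-Ab1 (95% interval -0.14 to 0.92), or 0.62 and called without YFPpos SGC0649 replicate 63 (adjusted p = 0.029, edgeR). It was -0.45 for H2-Aa, -0.89 for H2-Eb1, -1.16 for H2-DMb1 and -0.39 for Ciita. With SGC0946, 3 members were called higher and 2 lower, where 54.7% of all genes were called, 26.9% higher and 27.8% lower. H2-Aa rose by 2.03 (SE 0.51), with values of 1.51 without YFPneg SGC0946 replicate 93 and 2.86 without replicate 91, H2-Ab1 by 1.30 (SE 0.21) and H2-Eb1 by 2.37 (SE 0.40). Cd74 was lower, at -0.30 (SE 0.12), and so was H2-DMa, at -0.47 (SE 0.17), and both of these calls were lost when scaling factors were left out (adjusted p = 0.080 and 0.051, edgeR) and under 5 of 6 removals of 1 library each. Ciita differed by 0.87 (95% interval -0.14 to 1.87) and was called without YFPneg SGC0946 replicate 93 (1.38, adjusted p = 0.017, edgeR). H2-DMb1 differed by 1.00 (95% interval -0.59 to 2.59), with a range of 0.47 to 2.04 over alternatives, and limma-voom called it (1.98, adjusted p = 0.049). The sort comparisons and the compound comparisons share libraries.

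Against naive cells, the 4 cultured groups share the same 3 controls, and they differ from them in culture, stimulation and starting population at once. In YFPneg SGC0649 cells 6 members were called higher, where 69% of all genes were called, 36.4% higher and 32.6% lower. In YFPpos SGC0649 cells 3 members were called higher, where 79.8% of all genes were called, 42.6% higher and 37.3% lower. In YFPneg SGC0946 cells it was 6 members, beside 72.9% of all genes, 38.6% higher and 34.3% lower. In YFPpos SGC0946 cells it was all 7 members, beside 80.7% of all genes, 42.2% higher and 38.5% lower. No member was called lower. Log2 differences for Cd74 were 4.70 (SE 0.17), 3.32 (0.16), 4.55 (0.16) and 4.25 (0.16) in that order of groups. For H2-Ab1 they were 3.95 (SE 0.37), 4.35 (0.34), 5.07 (0.33) and 6.37 (0.32), so that its highest value stood in YFPpos SGC0946 cells. For Ciita they were 3.21 (SE 0.80), 2.83 (0.77), 3.85 (0.73) and 4.71 (0.69), against naive counts of 0 to 3. Without naive replicate 3 the Ciita values were 3.86, 3.47, 4.49 and 5.36.

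H2-Aa was called against naive cells in both SGC0946 groups, at 1.42 (SE 0.61) in YFPneg and 3.45 (SE 0.57) in YFPpos cells, and in neither SGC0649 group. The former call was lost under several alternatives, with an adjusted p of 0.39 in limma-voom and a log2 difference of 0.58 without YFPneg SGC0946 replicate 91 (adjusted p = 0.42, edgeR), while it was 1.94 without replicate 93 (adjusted p = 0.00017, edgeR). In YFPneg SGC0649 cells H2-Aa passed the threshold when only those groups were fitted (1.18, adjusted p = 0.045, edgeR). H2-Eb1 was called in YFPneg SGC0649 cells at 1.90 (SE 0.49) and in YFPpos SGC0946 cells at 3.36 (SE 0.44). It also passed the threshold in YFPpos SGC0649 cells without naive replicate 1 (1.38, adjusted p = 0.036) and in YFPneg SGC0946 cells without replicate 93 (1.37, adjusted p = 0.0051, both edgeR). H2-DMa, already present in naive cells, differed from them by 1.19 (SE 0.20) in YFPneg SGC0649 and 0.54 (SE 0.18) in YFPpos SGC0946 cells, the latter lost without naive replicate 2 (adjusted p = 0.060, edgeR), and by 0.18 (95% interval -0.21 to 0.57) in YFPpos SGC0649 cells. H2-DMb1 was called in YFPneg SGC0649, YFPneg SGC0946 and YFPpos SGC0946 cells at 2.87, 2.53 and 3.53, with SE of 0.98 to 1.09, or at 3.56, 3.22 and 4.22 without naive replicate 1. The first was lost without YFPneg SGC0649 replicate 62 (2.54, adjusted p = 0.11, edgeR) and 2 other single libraries, and the second in limma-voom (adjusted p = 0.30) and without any of 4 single libraries.

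Of 20 other genes of the pathway, 18 passed the filter, and H2-Eb2 and March1 had at most 3 reads in any library. With SGC0946 in YFPpos cells 5 of the 18 were called higher, 5 lower and 8 not, with a median log2 difference of 0.11 against -0.04 over all genes. Of all genes tested, 27.7% were called there, 12.1% higher and 15.7% lower. Lgmn, the asparagine endopeptidase that begins the cutting of the invariant chain, had 70, 50 and 61 reads with SGC0649 and 213, 187 and 258 with SGC0946. It rose by 1.61 on the log2 scale (SE 0.19, adjusted p = 2.4e-05, edgeR). H2-Ob, the beta chain of H2-DO, which restrains H2-DM, had 33, 16 and 16 reads with SGC0649 and 81, 98 and 102 with SGC0946, and it rose by 1.86 (SE 0.23, adjusted p = 3.7e-05, edgeR). Ctss, cathepsin S, which makes the last cut that leaves CLIP in professional presenting cells, had 1309, 1356 and 1301 reads with SGC0649 and 819, 1027 and 1226 with SGC0946. It fell by 0.63 (SE 0.08, adjusted p = 2.9e-05, edgeR), and Cd83, which protects surface class II from March-mediated turnover, fell by 1.78 (SE 0.28, adjusted p = 0.00029, edgeR). In none of these 4 genes did the groups overlap.

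The other called partners in YFPpos cells were H2-Oa, H2-DMb2 and Ctsl, higher, and Ifi30, Nfya and Nfyc, lower. Among genes that act on class II promoters, Nfya and Nfyc, subunits of NF-Y, were thus called lower and Ciita higher. The regulatory factor X genes and Irf1 differed little between compounds. The log2 differences were 0.18 for Rfx5, 0.07 for Rfxap and 0.10 for Rfxank, subunits of regulatory factor X, and 0.13 for Irf1, a factor that acts on Ciita, and none of these 4 was called. In YFPneg cells Lgmn was higher by 1.01 (adjusted p = 0.0093, edgeR), 0 of the 18 were lower and 17 were not called. Of all genes tested, 8.63% were called there, 4.99% higher and 3.64% lower.

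In the reporter sort, 3 partners were called higher and 10 lower in YFPpos SGC0649 cells, beside 23.9% of all genes higher and 21.3% lower. With SGC0946 it was 3 higher and 7 lower, beside 26.9% and 27.8% of all genes. Irf1 had 14029 and 15921 reads in YFPneg SGC0649 cells and 6579, 6043 and 6064 in YFPpos SGC0649 cells. It fell by 1.46 there and by 1.30 with SGC0946. Ctss fell by 1.50 and 1.96, so these partners were lower in YFPpos cells under either compound. Cd74 differed by -1.38 and -0.30, and the latter call was lost under several alternatives. March8, a ubiquitin ligase of the family that turns over class II, rose by 1.27 and 1.03, and Ifi30, the endosomal thiol reductase, by 0.95 and 0.70.

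Against naive cells, 7 partners were called higher and 6 lower in YFPneg SGC0649 cells, 5 and 11 in YFPpos SGC0649, 6 and 9 in YFPneg SGC0946, and 5 and 9 in YFPpos SGC0946 cells. Over all genes 69% to 80.7% were called in these comparisons, so the partners' 13 to 16 calls among 18 tested, both directions together, stand near that share. By direction, all genes were 36.4% higher and 32.6% lower, 42.6% and 37.3%, 38.6% and 34.3%, and 42.2% and 38.5% in the same order. The partners' lower calls outnumbered their higher ones in every group but YFPneg SGC0649, which was not so over all genes. H2-Ob, unlike the 7 members, was highest in naive cells, with 1178, 1044 and 1241 reads, and fell by 4.13 in YFPneg SGC0649 and by 6.14 in YFPpos SGC0649 cells on the log2 scale. March8 had 1, 1 and 7 reads in naive cells and differed from them by 4.65 and 5.92 in the same groups. These lists were written with earlier results of the same libraries known.

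Markers of other class II bearing cells were read in the same libraries. The 15 B cell markers summed to 5.35 to 5.84 CPM in YFPpos SGC0649 and 5.72 to 7.12 in YFPpos SGC0946 libraries, against 60.7 to 68.0 and 145 to 154 for the 7 class II members. In YFPpos SGC0946 libraries the defining B cell genes Ms4a1 and Pax5 were at 0, Cd79b had 1, 1 and 2 reads and Cd79a 3, 7 and 11. Between compounds in YFPpos cells 1 of the 5 B cell markers tested was called, beside 27.7% of all genes. That marker, Ebf1, with 13, 18 and 15 reads against 64, 59 and 74, rose by 1.84 (adjusted p = 0.026, edgeR). In YFPneg SGC0946 cells the B cell sum was 7.32, 3.62 and 2.16 CPM, highest in replicate 91 and lowest in replicate 93, as H2-Aa was. In replicates 91, 92 and 93 of that group Ms4a1 had 12, 0 and 0 reads, Ebf1 20, 7 and 0 and Cd79a 9, 4 and 1. Cd79b had 0, 3 and 0 reads there, and Pax5 was at 0. The part of B cells in the result was not tested.

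The 11 dendritic cell markers summed to 119 to 124 CPM in YFPpos SGC0649 and 113 to 123 in YFPpos SGC0946 libraries. Nearly all of this was Bst2 (73.4 and 70.3 CPM) and Cst3 (42.5 and 45.0 CPM), which many cells make. Of 5 tested, Flt3 alone was called, beside 27.7% of all genes. It had 5, 0 and 1 reads against 24, 23 and 32 (log2 difference 3.39, adjusted p = 0.017, edgeR). Itgax had 0, 0 and 2 reads against 7, 3 and 3. Zbtb46 went the other way, with 82, 97 and 133 reads against 64, 58 and 96 (means of 4.65 and 2.70 CPM). The 10 macrophage and monocyte markers summed to 204 to 303 CPM against 463 to 545, nearly all of it Ctsd, a lysosomal protease that many cells make, which rose by 1.01 (adjusted p = 2.3e-05, edgeR). Itgam also rose, with 44, 17 and 8 reads against 137, 140 and 163 (log2 difference 2.43, adjusted p = 0.0025, edgeR), while Csf1r was at 0 in the 3 YFPpos SGC0946 libraries and Lyz2 had 2, 2 and 4 reads. The part of these cells in the class II counts was not tested. Marker genes of these lists moved in both directions between naive and cultured cells. Naive libraries held more reads of Csf1r (36, 22 and 35), Lyz2 (34, 24 and 49) and Cd79a (15, 20 and 20) than any cultured library. Ebf1 (1, 0 and 0 reads in naive cells), Fcmr (1, 2 and 5) and Zbtb46 (5, 3 and 6) were instead lower in naive cells than in YFPpos SGC0946 cells, where Fcmr had 67, 53 and 106 reads and Zbtb46 64, 58 and 96.

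**Figure D5:**
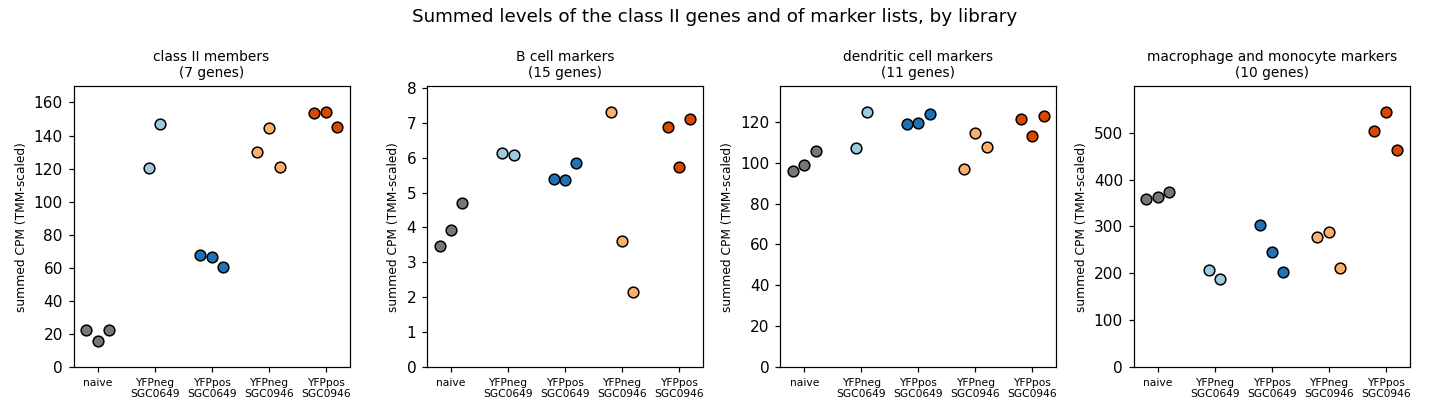
Summed TMM-scaled CPM in each library (points) of the 7 class II members and of marker lists of B cells, dendritic cells and macrophages or monocytes, each on its own axis from 0. The class II sum runs from 15.6 to 22.6 in naive and from 145 to 154 in YFPpos SGC0946 libraries, while the B cell sum stays between 2.16 and 7.32 throughout.

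Among 12342 other genes, those whose level was most like that of H2-Aa over the 14 libraries, by Pearson's r of log2 CPM, were H2-Eb1 (0.92), Abcc3 (0.91), Nid2 (0.91), Guca1a (0.91), Itgb5 (0.90), Pxdc1 (0.90), Cxadr (0.90) and Rbfox2 (0.89). For Cd74 they were Ly6i (0.995), Gbp3 (0.99), Armcx6 (0.99), Il12rb1 (0.98), Gbp5 (0.98), Cacnb3 (0.98), Gm4070 (0.98) and Ccdc181 (0.98). No class II member was among the 8 for Cd74. These values describe 5 separate groups of libraries, between which total counts and sort also differed. Over deviations from the group means the genes most like H2-Aa were Pkdcc, Sema4c, Zfp324, Dxo, Tbc1d2, Ramp3, Kank3 and Lyn, with r of 0.96 to 0.99. On the log scale H2-Aa varied most within YFPneg SGC0946 cells, from 0.139 CPM in replicate 93 to 3.58 in replicate 91. These r values therefore rest largely on that group. Genes most like Cd74 over the deviations were Chst2, Serpinb1a, Gpr45, Clic5, Ccrl2, Ier3, Fam188b and B4galt4, with r of 0.88 to 0.93.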

How the data were processed

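The authors deposited raw read counts per protein-coding gene for 14 libraries, made with featureCounts on GRCm38, per the submitters' processing notes, and counted on the reverse strand, per the table's name. Those notes also name edgeR and limma; no source used here gives the aligner. From these counts, R 4.3.3 and edgeR 4.0.16 fitted 1 quasi-likelihood model to all 14 libraries with a coefficient for each group, TMM factors and the filterByExpr filter (minimum count 10, which left 12343 of 22048 genes). The common dispersion was 0.00831. P-values were Benjamini-Hochberg adjusted over all genes tested, at 0.05. Log2 fold changes carry a prior count of 0.125, and the SE of each was derived from it and the F value, as size over root F. limma 3.58.1 and DESeq2 1.42.0 gave alternatives, and the fit was checked on simulated data. Exon lengths come from GENCODE (GRCm38) and promoters from RefSeq.

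The members, the partner and marker lists and the rule for named genes were chosen with earlier results of these data known. Named were all 7 members, up to 4 genes of a list with the smallest p, and the 8 genes most like H2-Aa and Cd74 (log2 CPM with a prior count of 0.5). Other partners and markers were named after their values were seen. Nothing beyond the replicate labels says that libraries came from separate animals, so p-values measure the spread between these libraries, which may be technical. No 2 libraries agreed within sampling noise. Some genes of these lists are not reported here by name.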

Additional observations from a re-analysis of the deposited data

Results flagged for a closer look

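The difference between SGC0946 and SGC0649 was itself called as differing between the reporter sorts for 2 of the 7 genes. The test was the interaction term of edgeR's quasi-likelihood fit, by which 1.15% of all genes were called, 0.259% higher and 0.891% lower. The other 5 members were not called, which does not show that they did not differ. The 95% interval lay above 0 for H2-Aa (0.80 to 4.17) and H2-Ab1 (0.22 to 1.58). It included 0 for H2-DMa, H2-DMb1 and Ciita. For H2-Eb1 the log2 difference was 3.26 larger in YFPpos than in YFPneg cells, with 106 to 199 reads in YFPpos SGC0946 libraries against 5 to 45 in the other cultured libraries. The H2-Eb1 call was lost without YFPneg SGC0649 replicate 61 (3.05, adjusted p = 0.065, edgeR). For Cd74 the log2 difference was 1.07 larger, and there the YFPpos SGC0649 libraries were lowest of the cultured groups, with 695 to 778 reads. No cause was tested. No group held the 4 libraries that a check for a single outlying library needs.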

How the results depend on the processing

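Of 851 log2 differences of the 7 genes under alternatives, 794 kept their direction and their side of the threshold, 32 dropped below it, 19 passed it and 6 changed sign. The 6 were all uncalled compound differences in YFPneg cells. H2-Aa was -0.48 in limma-voom and ran from -0.58 to 0.78 with 1 library left out, Cd74 from -0.29 to 0.011, H2-DMa from -0.39 to 0.080 and H2-DMb1 from -1.38 to 0.19.

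Against naive cells, YFPneg SGC0946 had 3 members called instead of 6 when only those groups were fitted, where the filter left 5 members. With SGC0946, the sort had 3 instead of 5 called without scaling factors and 7 in limma-voom, which added Ciita and H2-DMb1, and the cause was not tested. With 1 library left out, called members numbered 3 to 5 in that sort, 0 to 1 for the compounds in YFPneg cells and 1 to 3 in the interaction. For the compounds in YFPpos cells 5 members were called, but 7 with only those groups fitted, which added H2-DMa and H2-DMb1 (adjusted p = 0.0037 and 0.021, edgeR). There it was 6 in limma-voom and 4 to 6 with 1 library left out. Calls over all genes were 3424 for that comparison, but 1886 without YFPpos SGC0649 replicate 63 and 2004 without YFPpos SGC0946 replicate 92. In YFPneg cells they were 1065, against 1615 in DESeq2 and 199 with only those groups fitted. In the interaction they were 142, against 301 in DESeq2, 56 with only those groups fitted and 61 to 241 with 1 library left out.

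Whether same-numbered sorts came from 1 culture is not stated. Their deviations from group means correlated at 0.03 to 0.11, positive in 5 of 5 pairs, while 9 of 10 pairs of unlike number were negative. Deviations cancel out within a group, so positive values in pairs of like number push those of unlike number to be negative. These tallies are therefore not independent and cannot decide the pairing, and 1 library matched another number best. With a replicate block, 3 members were called in the SGC0649 sort instead of 2, with H2-Ab1 added at 0.59, 5 in the SGC0946 sort and 2 in the interaction, and all-gene calls were 4342, 6219 and 96. With counts of 0 to 35 in YFPneg cells, differences of H2-DMb1 and Ciita there have wide intervals.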
